A study of Rattus norvegicus with 9 samples.

Results

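Gene expression in rat lumbar dorsal root ganglia was compared between week 2 and week 1 of dosing, across 3 treatment groups together. The dorsal root ganglion is the cluster of sensory nerve cell bodies beside the spinal cord. The members were the 3 arrays labelled 2 week and the 3 arrays labelled 1 week, chosen from the labels alone, 6 of the 9 arrays in all. Each week 2 array was paired with the week 1 array of its treatment group. The groups were normal rats dosed with vehicle, rats injected with streptozotocin (STZ) and dosed with vehicle, and STZ-injected rats dosed with FK, which is FK1706. All were Sprague-Dawley rats, and the spinal levels were L4 to L6. STZ kills the insulin-producing cells of the pancreas and leaves the rat diabetic, and FK1706 is an immunophilin ligand. The sources used here give neither the doses nor the ages of the rats. Every array held the pooled RNA of 5 rats, so each treatment group had 1 pool per week and the rats of week 2 were not those of week 1. No group and week had a replicate pool. P-values here thus rest on how far the 9 arrays depart from week steps common to the 3 treatment groups. They do not measure how much pools or rats of 1 condition vary. Week 2 rats had been dosed for 1 week longer, and time, growth of the animals and any handling that differed by week cannot be told apart.

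A ganglion holds more than neurons. Each cell body is wrapped by satellite glia, its axon by Schwann cells, and the whole is held in a capsule and a partition of connective tissue made by fibroblasts. Fibroblasts secrete fibrillar collagens, which assemble into cables with microfibrils, proteoglycans and adhesive glycoproteins. Schwann and endothelial cells rest on a thinner basement membrane of laminins, nidogens, perlecan and type IV collagen.

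The deposited signal itself was lower at week 2 in all 3 treatment groups. The trimmed mean signal was 534, 517 and 466 units at week 1 in the normal vehicle, STZ vehicle and STZ FK arrays, and 485, 423 and 408 at week 2. Control transcripts added in the same amount to each hybridization were lower too, by -0.26, -0.40 and -0.24 on the log2 scale. The median gene was lower by -0.13, -0.24 and -0.15. Arrays were therefore put on one scale by quantile normalization, and every level and difference below is in log2 units on that scale unless the deposited scale is named. A difference is relative to the typical gene, and a common shift of all genes would not be seen. The 3′ to 5′ signal ratio of Gapdh, a measure of RNA integrity, was 1.04 to 1.12 at week 1 and 1.04 to 1.10 at week 2. That of actin was 1.21 to 1.24 and 1.08 to 1.23. The hexokinase ratio was less even: it went from 1.84 to 1.84 in normal vehicle, from 1.47 to 2.05 in STZ vehicle and from 1.59 to 1.39 in STZ FK, and its part in the results was not tested. Sensory neuron genes were bright on all 6 arrays. Prph, which encodes the neuronal filament peripherin, was at 12.78 ± 0.11 (SD, n = 3 pools) at week 1 and 12.89 ± 0.05 at week 2.

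Of 6990 genes tested, 1 passed an adjusted p under 0.05 (0.0143%), by limma with Benjamini-Hochberg adjustment. That gene was Col3a1, the chain of type III collagen. With an unadjusted limma p under 0.05, 199 genes were higher at week 2 (2.85%) and 206 were lower (2.95%). In sign alone, 1007 genes were higher in all 3 treatment groups (14.4%) and 855 were lower in all 3 (12.2%). A single gene, Col1a1, was at least 1.5-fold lower in each treatment group (0.0143%), and no gene was at least 1.5-fold higher in each. Col1a1 missed the threshold on adjusted p, and 0 genes passed in the higher direction. The differences of the 3 treatment groups correlated across the 6990 genes at 0.05, -0.05 and 0.09, and genes are not independent replicates.

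**Figure D1:**
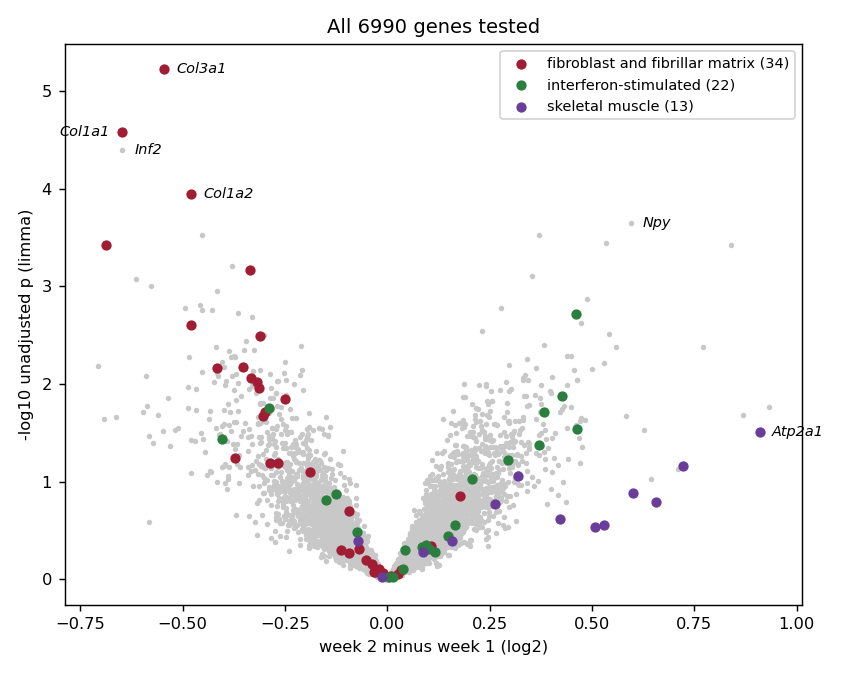
Week 2 minus week 1 difference (log2, x axis) against the -log10 of the unadjusted limma p (y axis) for the 6990 genes tested, 1 point per gene. Fibrillar matrix genes (dark red) stand on the left with Col3a1 highest at -0.55, interferon-stimulated genes (green) lie on both sides, and skeletal muscle genes (purple) reach far to the right at low heights.

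Type III collagen RNA fell from week 1 to week 2. The 3 chains of types III and I, the main fibre-forming collagens of the nerve sheath, ranked 1, 2 and 4 by p among all genes tested. Col3a1 was at 13.00, 12.56 and 12.73 at week 1 in the normal vehicle, STZ vehicle and STZ FK pools, and at 12.53, 11.93 and 12.19 at week 2. Every week 2 pool lay below every week 1 pool. The difference was -0.55 (SE 0.068, 95% interval -0.70 to -0.40, limma adjusted p 0.0421), a 1.46-fold decrease, with -0.47, -0.63 and -0.54 in the 3 groups. On the deposited scale, Col3a1 signal went from 9787 to 6544 units in normal vehicle, from 7027 to 3860 in STZ vehicle and from 7107 to 4459 in STZ FK. The call was a narrow one. Leaving out any 1 of the 6 arrays took the limma adjusted p of Col3a1 above the threshold, to between 0.0703 and 0.332, while the difference stayed between -0.60 and -0.50. It also missed the threshold with arrays scaled to one median (0.0661), every probe set tested on its own (0.0503), no filter on dim genes (0.348), a prior without a trend (0.772) and the pairing by treatment group left out (0.938), all as limma adjusted p.

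Col1a1, the first chain of type I collagen, was at 12.42, 11.59 and 11.97 at week 1 and at 11.73, 10.98 and 11.32 at week 2. The normal vehicle pool was the highest in both weeks, so the weeks overlapped, but each group's own step was of nearly the same size at -0.69, -0.61 and -0.65. The mean difference was -0.65 (SE 0.094, limma adjusted p 0.0927). A second probe set for Col1a1 gave -0.71, with -0.53, -1.03 and -0.56 in the groups. Col1a2, the other chain of type I collagen, was at 12.98, 12.42 and 12.31 at week 1 and at 12.29, 11.89 and 12.10 at week 2. All week 2 pools were below all week 1 pools, and the STZ FK group moved least. Its difference was -0.48 (SE 0.082, limma adjusted p 0.201), and its second probe set gave -0.48 as well. Col5a2, a chain of the type V collagen that sets fibre width, was -0.34 apart by 1 probe set and -0.38 by another. Its limma adjusted p was 0.396. Fitted to the 6 arrays of weeks 1 and 2 alone, Col1a1 passed together with Col3a1 (limma adjusted p 0.0304).

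Promoters of Col1a2 and Col5a2 are shown because these collagen genes were lower together with Col3a1 and Col1a1. Of the 6 matrix genes with the largest moderated t, 4 had an entry among the RefSeq promoters of build GRCr8. Col3a1 and Col1a1 had no entry, so their promoters are not shown. The promoters of Col1a2 and Col5a2 are printed for the 250 bases before the annotated start. Where transcription starts in the ganglia was not checked, so a window can hold transcribed bases. Capitals mark CCAAT on either strand, the box that binds the factor NF-Y (ATTGG when read on the other strand), and would mark GGGCGG or CCGCCC, the box that binds Sp1. The Col1a2 window is chr4:33518307-33518556, plus strand, and the Col5a2 window is chr9:55090152-55090401, minus strand.
Col1a2: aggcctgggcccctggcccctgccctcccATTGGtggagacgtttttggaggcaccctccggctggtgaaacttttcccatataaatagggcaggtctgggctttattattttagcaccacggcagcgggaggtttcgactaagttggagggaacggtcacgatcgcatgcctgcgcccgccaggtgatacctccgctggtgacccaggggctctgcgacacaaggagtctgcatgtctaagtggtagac
Col5a2: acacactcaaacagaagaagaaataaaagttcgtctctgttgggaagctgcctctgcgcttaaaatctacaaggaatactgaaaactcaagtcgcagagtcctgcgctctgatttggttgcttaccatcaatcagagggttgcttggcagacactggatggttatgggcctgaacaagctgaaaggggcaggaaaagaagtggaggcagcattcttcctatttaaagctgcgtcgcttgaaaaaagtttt
The Col1a2 window held 1 CCAAT match and 0 GGGCGG matches, and the Col5a2 window held 0 of both. Among 21 tested matrix genes with an entry, 8 held CCAAT (38.1%), against 34% of 33469 promoters of the same length. GGGCGG was found in 9 of the 21 (42.9%), against 30.5% of all. Of the 8 with an entry and an unadjusted p under 0.05 toward lower values, 2 held CCAAT and 1 held GGGCGG.

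The fibroblast and fibrillar matrix list had 37 genes on the array, of which 34 were bright enough to be tested. Of the 34, 1 passed, which was Col3a1. By unadjusted limma p under 0.05, 15 were lower and 0 were higher, where the background shares were 2.95% and 2.85%. That count was added after the values were seen, and the list was chosen with earlier results of these data known. Its members were read in the same pools and are not independent replicates. In sign, 15 were lower in all 3 treatment groups and 1 was higher in all 3, where the background shares were 12.2% and 14.4%. The median difference of the list was -0.26, against 0.00 over all genes tested, and -0.21, -0.25 and -0.23 in the normal vehicle, STZ vehicle and STZ FK groups. The 3 members below the brightness filter, Postn, Mfap2 and Loxl1, were also lower on average. In bulk tissue, fewer fibroblasts and less collagen RNA per fibroblast cannot be told apart.

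The beaded-filament collagen VI, which links cells to the fibre network, was lower in its 3 chains by the brightest probe set of each. Col6a3 was at 10.03, 9.51 and 9.74 at week 1 and at 8.98, 9.13 and 9.12 at week 2. The week 2 pools were close together and all lay below the week 1 pools, and the step was longest in normal vehicle at -1.05. The mean difference was -0.69 (SE 0.14, limma adjusted p 0.266). Col6a1 and Col6a2, named after their values were seen like Col14a1 and Mfap4 below, were at -0.33 and -0.30. A dim second probe set for Col6a2 gave 0.11, -1.50 and 0.02 in the groups. Col14a1, a collagen that sits on the surface of fibres, was at -0.32 and lower in each group by its brighter probe set, while another gave 0.30, -0.18 and -0.42 in the groups. Of the microfibril genes, Fbn1, which encodes fibrillin-1, was at -0.48 by 1 probe set and -0.40 by another, and Mfap4 was at -0.42. Fbn1 was at 10.11, 9.82 and 9.56 at week 1 and at 9.53, 9.26 and 9.27 at week 2, with no overlap.

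Genes for matrix remodelling were lower beside the collagens. Mmp2, a gelatinase, was at -0.35, with -0.09 in normal vehicle and -0.65 in STZ FK, and a dim second probe set gave 0.20. Timp1, an inhibitor of such proteases, was at -0.31 and ran the same way in each group. Fn1 (fibronectin) was at -0.25, Lum (the proteoglycan lumican) at -0.31, and Sparc, a collagen-binding glycoprotein, at -0.30. The step of Lum was -0.63 in normal vehicle and -0.04 in STZ FK. That of Sparc was -0.66 in STZ vehicle and 0.02 in STZ FK, but a second Sparc probe set gave -0.36, -0.18 and -0.16 in normal vehicle, STZ vehicle and STZ FK. None of these passed.

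Not every fibroblast gene was lower. Dcn, which encodes decorin and is one of the most used markers of fibroblasts, was at -0.01, with -0.08, 0.05 and 0.00 in the groups. Pdgfra, the growth factor receptor that marks fibroblasts, was higher in all 3 groups, at 0.11, 0.20 and 0.22, and it was the single member with that sign pattern. The fibulin genes Fbln5 and Fbln1 were at 0.01 and 0.11. Dpt, the matrix protein dermatopontin, was at -0.03 by its brighter probe set but at -0.45 by another, with -0.69, -0.38 and -0.26 in the groups, so its probe sets disagreed. P4hb, a subunit of the enzyme that hydroxylates collagen, was at -0.02. Serpinh1, the collagen chaperone HSP47, was at -0.29 with 0.11, -0.73 and -0.24 in the groups.

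**Figure D2:**
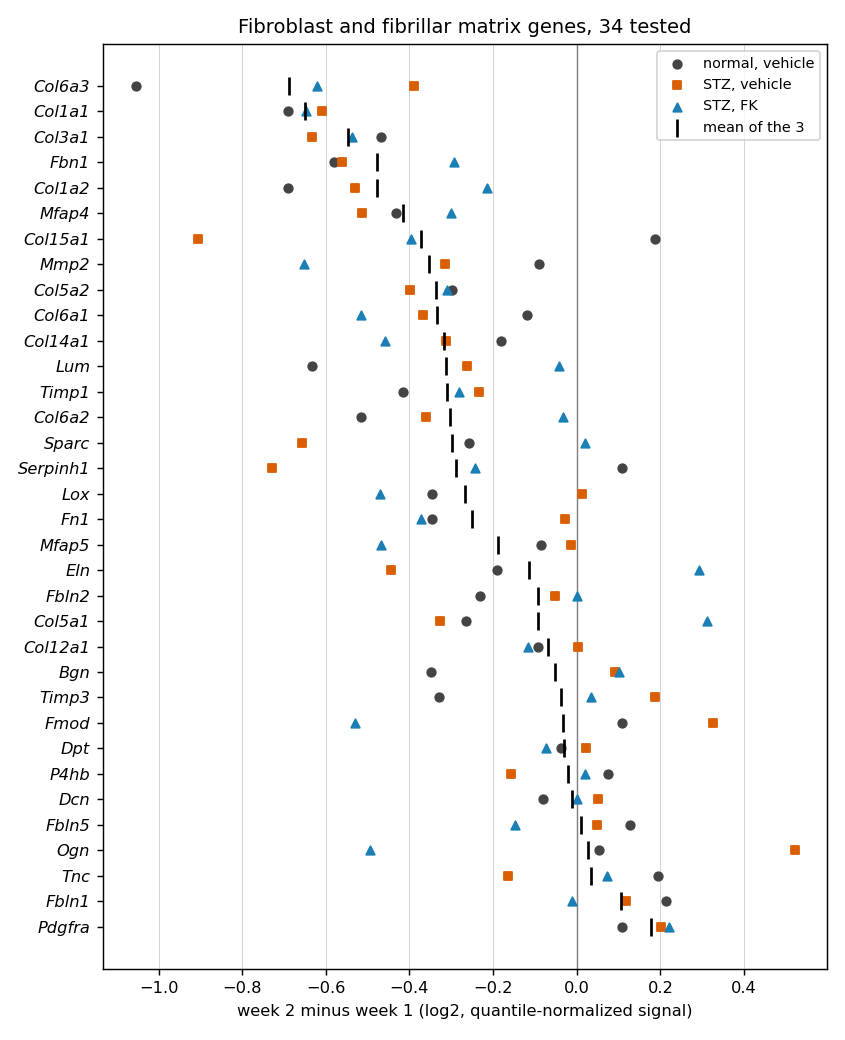
Week 2 minus week 1 difference (log2) of each of the 34 fibrillar matrix genes tested, with 1 symbol per treatment group and a bar at the mean. From Col6a3 down to Mfap4 all symbols lie left of 0, while Dcn and Dpt lie close to 0 and Pdgfra lies right of 0 in all 3 groups.

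Levels at week 3 place the step in time. Mean Col3a1 was 12.76 at week 1, 12.22 at week 2 and 12.39 at week 3, and mean Col1a1 was 11.99, 11.34 and 11.47. For both genes the week 3 mean lay between the other means and nearer to week 2. Col3a1 at week 3 was at 12.78 in normal vehicle and at 12.20 in both STZ pools. Mean Npy was 8.21, 8.81 and 8.52 over the 3 weeks. Mean Hspg2 was 8.96, 8.35 and 8.96, so its week 3 level matched that of week 1 to 2 decimals.

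**Figure D3:**
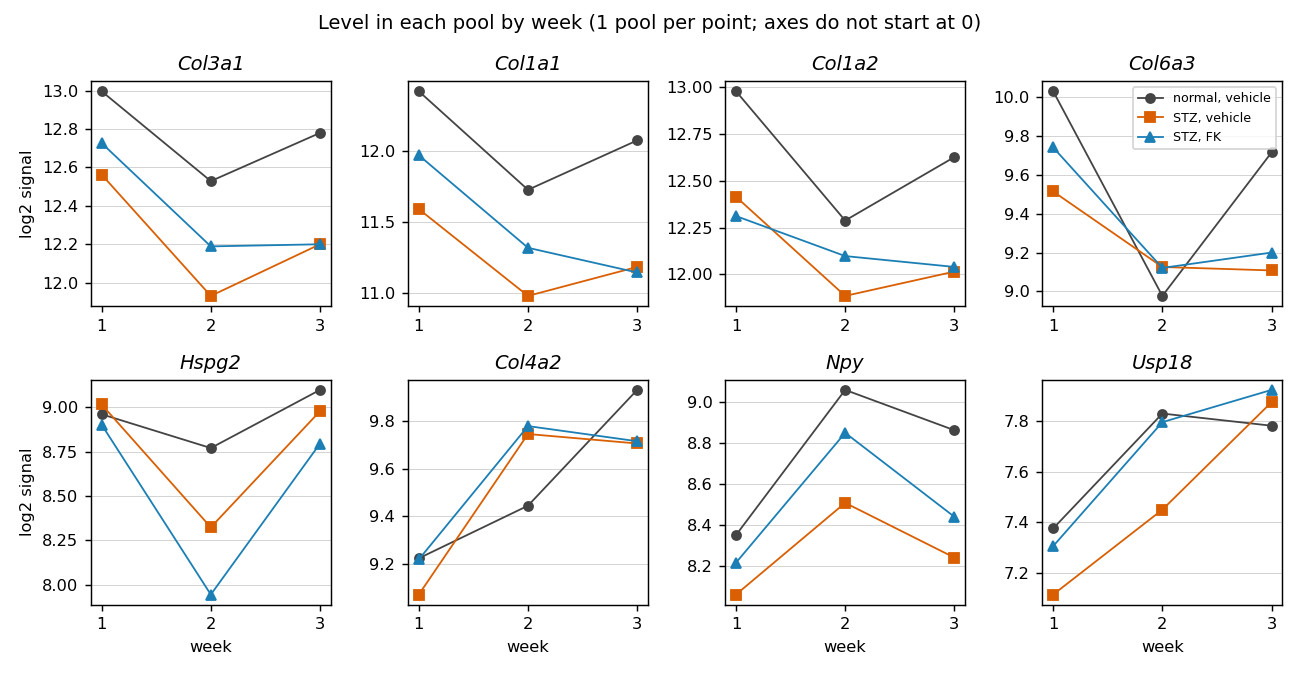
Level (log2 signal, y axis, not starting at 0) of 8 genes at weeks 1, 2 and 3 (x axis), 1 pool per point and 1 line per treatment group. Lines of Col3a1, Col1a1, Col1a2, Col6a3 and Hspg2 step down from week 1 to week 2 in all 3 groups, and those of Col4a2, Npy and Usp18 step up.

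The basement membrane list showed a smaller shift with 1 gene against it. All 12 genes were tested, the median was -0.19, and by unadjusted limma p under 0.05, 4 were lower and 1 was higher, where the background shares were 2.95% and 2.85%. None passed. Hspg2, which encodes the heparan sulfate proteoglycan perlecan, was at 8.96, 9.01 and 8.90 at week 1 and at 8.77, 8.32 and 7.95 at week 2. All week 2 pools were lower, with the STZ FK pool farthest down, and the difference was -0.61 (SE 0.14, limma adjusted p 0.422). Nid1, encoding nidogen-1, a linker of laminin and collagen IV, was at -0.45, and its second probe set gave -0.28. The laminin chains Lamc1 and Lama2 were at -0.23 and -0.25 and lower in each group. Col4a2 was the exception: it was at 9.22, 9.07 and 9.22 at week 1 and at 9.44, 9.75 and 9.78 at week 2. That is 0.49 higher (SE 0.11, limma adjusted p 0.549). Col4a1, whose chain pairs with that of Col4a2 in the same collagen molecule, was at -0.15 by 1 probe set and -0.34 by another, on the opposite side of 0.

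Schwann cell genes were slightly lower. Of 15 myelinating Schwann cell genes tested, 5 were lower and 0 were higher by unadjusted limma p under 0.05, 8 were lower in all 3 groups, and none passed. The background shares were 2.95% lower by that p and 12.2% lower in all 3 groups. The median was -0.14, with -0.06 in normal vehicle, -0.25 in STZ vehicle and -0.10 in STZ FK. Ugt8, which makes the myelin lipid galactosylceramide, was at -0.42 (SE 0.095, limma adjusted p 0.483). It was at 10.61, 10.58 and 10.41 at week 1 and at 10.16, 10.02 and 10.18 at week 2, without overlap, though a dim second probe set gave 0.23. Pllp and Mal, myelin membrane proteins, were at -0.33 and -0.21, Prx (periaxin) at -0.25 and Cnp at -0.27. A bright second probe set for Cnp gave -0.16, with 0.12 in normal vehicle, -0.38 in STZ vehicle and -0.21 in STZ FK. The chief myelin genes Mbp and Pmp22 were at -0.09 and -0.08, and a second Mbp probe set gave -0.25. The transcription factor Sox10, which marks Schwann cells and satellite glia, was at 0.05.

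Other cells that a ganglion dissection can carry did not all move with the matrix genes. Of 21 cartilage and bone genes 8 were tested, and Cnmd and Col2a1 were at -0.38 and -0.38, but a second probe set for Col2a1 gave 0.13. Of the 8, 4 were lower in all 3 treatment groups and 1 was higher in all 3, where the background shares were 12.2% and 14.4%. By unadjusted limma p under 0.05, 2 were lower and 0 were higher, where the background shares were 2.95% and 2.85%. The summed level of the 21 genes was lower at week 2 in each group. It was 10800, 9690 and 10300 signal units at week 1 in normal vehicle, STZ vehicle and STZ FK. At week 2 it was 10200, 9180 and 9100, and no member was at 0. The summed fibrillar matrix level over 37 genes was 55100 to 68900 at week 1 and 45800 to 55200 at week 2. Red blood cell genes summed to 11500 to 12300 at week 1 and 8460 to 10900 at week 2, lower in each group, with Hbb, a haemoglobin chain, at -0.37. Macrophage genes summed to 16700 to 17200 at week 1 and 17800 to 18400 at week 2, endothelial genes to 4480 to 4620 and 4430 to 4680. The part of cell composition in the collagen result was not tested.

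Neuronal genes were close to level. The 20 nociceptor genes tested had a median of 0.06, none had an unadjusted limma p under 0.05, and 7 were higher in all 3 groups, where the background share was 14.4%. Gfra2, a receptor subunit for neurturin, was at 0.19, Tac1, the precursor of substance P, at 0.13, and Calca, the precursor of the peptide CGRP, at -0.02. Trpv1, the capsaicin receptor, was at 0.02, and the pain sodium channel genes Scn10a, Scn9a and Scn11a were at -0.04, -0.02 and 0.00. The large sensory neuron list had a median of 0.01, voltage-gated ion channels 0.01, and axonal transport motors and tubulins -0.01. In the synaptic list, with a median of 0.05, Dnm1 (dynamin 1) was at -0.21 and lower in each group, and Syn1 (synapsin I) was at 0.24 by 1 probe set and 0.02 by another.

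Between the collagens in rank stood Inf2, which encodes a formin that builds actin filaments and was named after its value was seen. It was at 9.49, 9.49 and 9.14 at week 1 and at 8.69, 8.80 and 8.68 at week 2. All 3 week 2 pools lay below the week 1 pools, and the difference was -0.65 (SE 0.099, limma adjusted p 0.0944).

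The highest-ranked gene in the upward direction was neuropeptide Y. Npy, a peptide that sensory neurons make more of after nerve injury, was at 8.35, 8.06 and 8.22 at week 1 and at 9.06, 8.51 and 8.85 at week 2. The pools did not overlap between the weeks, and the normal vehicle pool, from rats without diabetes, had the highest level in both. The difference was 0.59 (SE 0.11, limma adjusted p 0.266). Its injury-list partners did not follow as a group: the median of the 15 tested was 0.02. Klf6, a growth-promoting transcription factor, was at 0.38 by 1 probe set and -0.03 by another. Ngfr, the p75 neurotrophin receptor, was at 0.16. Gap43, the growth-cone protein, was at -0.01, and Gal (galanin) was at -0.22, -0.55 and 1.12 in the 3 groups.

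Interferon-stimulated genes were split. Of 22 tested, 5 were higher and 2 were lower by unadjusted limma p under 0.05, 9 were higher in all 3 groups against 2 lower in all 3, and the median was 0.10. None passed. Background shares were 2.85% higher and 2.95% lower by that p, and 14.4% higher and 12.2% lower in all 3 groups, so 2 of 22 lower in all 3 is near the background. Usp18, a brake on interferon signalling, was at 7.38, 7.11 and 7.31 at week 1 and at 7.83, 7.45 and 7.80 at week 2. The weeks did not overlap, and the difference was 0.43 (SE 0.14, limma adjusted p 0.795). Ifit1 and Mx2, antiviral effectors, were at 0.38 and 0.46, and Oas1a, which senses double-stranded RNA and was named after its value was seen, at 0.37. A dim second probe set for Mx2 gave 0.03. RT1-S3, a class I histocompatibility gene, was at 0.46, but 3 other probe sets for it gave -0.05, 0.37 and 0.19, and genes of this family are near copies that a probe may not separate. Gbp2, an interferon-induced GTPase, and RT1-T24-4 were on the other side at -0.40 and -0.29. Irf7 and Stat2, regulators of the pathway, were at 0.17 and 0.15 with each group above 0, though a dim second probe set for Stat2 gave -1.57, -0.01 and 1.79.

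Energy metabolism genes shifted by little. In the glycolysis list, with a median of 0.07 over 22 genes, Aldoc and Eno1, enzymes of glycolysis, were at 0.28 and 0.19 and higher in each group. Akr1b1, aldose reductase, which turns glucose into sorbitol, was at -0.17, with -0.18, -0.16 and -0.16 in the groups. Of 70 respiratory chain and ATP synthase genes, 7 were higher and 1 was lower by unadjusted limma p under 0.05, where the background shares were 2.85% and 2.95%. In sign, 15 of the 70 were higher in all 3 groups, where the background was 14.4%. Their median was 0.04. In the hypoxia list, Bnip3 was at 0.37 and higher in each group, and Mxi1 was at 0.24 by 1 probe set and -0.13 by another, while the list's median was 0.03 over 13 genes. The limma adjusted p of Bnip3 was 0.266. In the unfolded protein list Creld2, an endoplasmic reticulum protein, was at -0.71, with -1.39 in normal vehicle.

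**Figure D4:**
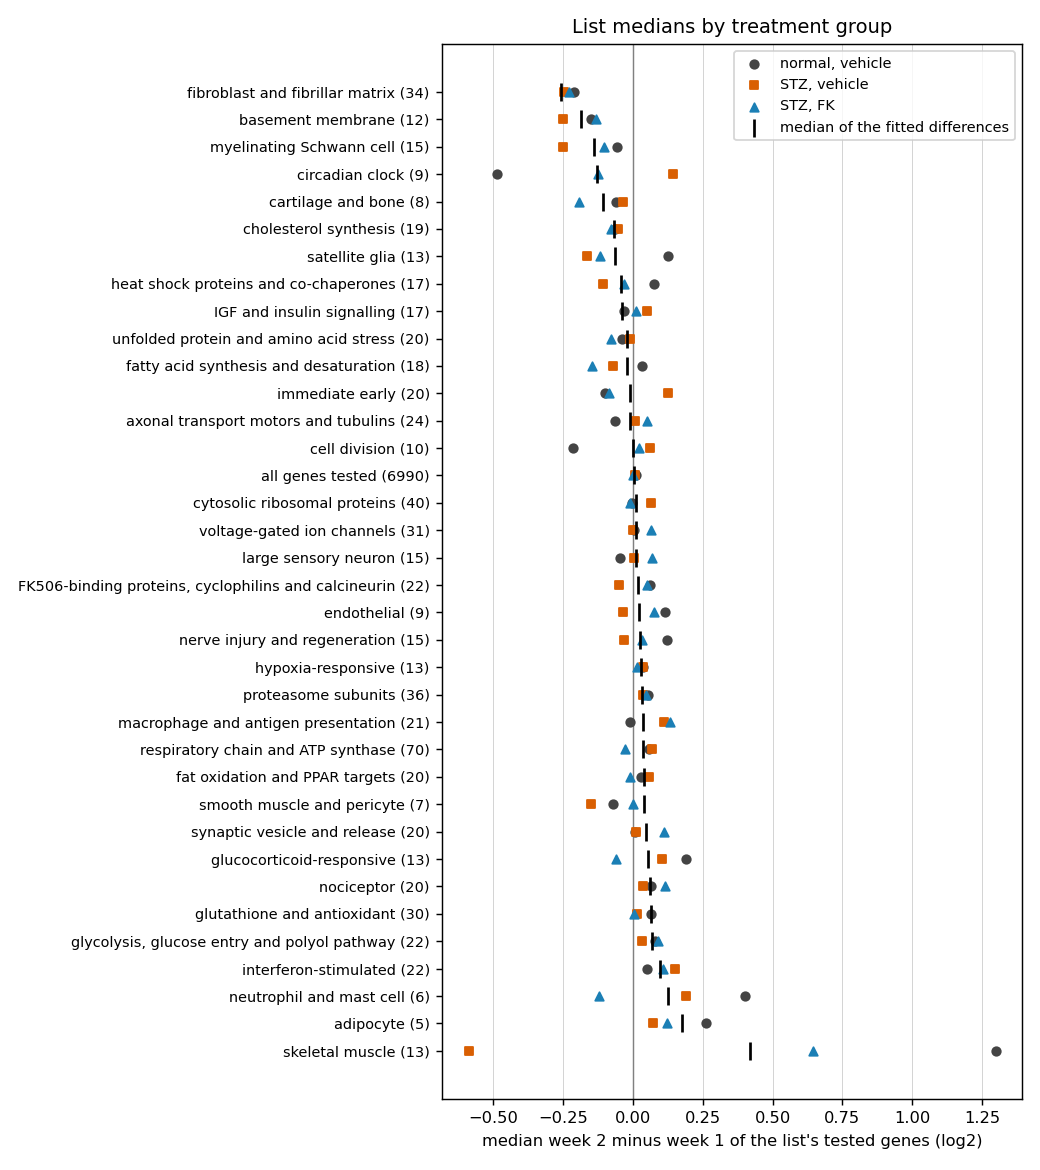
Median week 2 minus week 1 difference (log2) of each list with at least 5 genes tested, and of all 6990 genes, with 1 symbol per treatment group, a bar for the median of the fitted differences and the number of genes in brackets. The 3 symbols of the fibrillar matrix list lie together between -0.25 and -0.21, whereas those of the skeletal muscle list run from -0.59 to 1.30.

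Some gene groups went different ways in the 3 treatment groups. Skeletal muscle genes, which mark muscle carried along with a ganglion, had medians above 0 in normal vehicle and STZ FK and below 0 in STZ vehicle. The medians of 13 tested genes were 1.30, -0.59 and 0.64. Not every probe set followed. A bright second probe set for Myh1, a muscle myosin, gave -0.39, 0.31 and -0.16, and another gave -0.46, 0.01 and -0.48. Of the dim myosin genes, Myh2 was at 0.60, 0.68 and -0.53, while Myh4 was at 1.47, -1.08 and 1.84. Ckm, the muscle creatine kinase, was at 7.76, 8.32 and 7.75 at week 1 and at 9.57, 7.67 and 8.75 at week 2. Atp2a1, the calcium pump of fast muscle, had differences of 1.94, -0.29 and 1.08, and Tnnt3, a fast troponin, 1.70, -0.59 and 0.68. The summed level of 35 muscle genes was 4960, 5540 and 4390 units at week 1 and 9520, 4280 and 6380 at week 2, so the normal vehicle pool of week 2 held the most. None of the 35 was at 0, and 22 were below the brightness filter. Without the week 2 STZ vehicle array, 4 genes passed, all higher: Atp2a1, Ckm, Car3 and Fitm2, at limma adjusted p 0.018. Car3, carbonic anhydrase 3, is abundant in muscle and fat. The fibrillar matrix median was below 0 in all 3 groups while the muscle median changed sign between them. Any part of carried tissue in the collagen result was not tested.

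Clock genes also differed by treatment group, and not all in the same pattern. Dbp, a clock output gene, was at 8.61, 7.48 and 7.15 at week 1 and at 6.98, 7.62 and 6.88 at week 2. Its difference was -1.62 in normal vehicle, and 0.14 and -0.27 in the others. The normal vehicle pool of week 1 lay above the other 5, and that group's week 3 pool was higher still at 9.27. Nr1d1, a repressor in the clock loop, had differences of -1.04, -0.08 and -0.04, and its normal vehicle level was 8.11, 7.07 and 7.97 over the 3 weeks. Hlf, another output gene, was at -0.34, 0.66 and -0.70, and Bmal1, an activator of the loop, at 0.08, -0.50 and -0.12. The medians of 9 clock genes were -0.49, 0.14 and -0.12. The sources used here do not give the time of day of sampling.

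**Figure D5:**
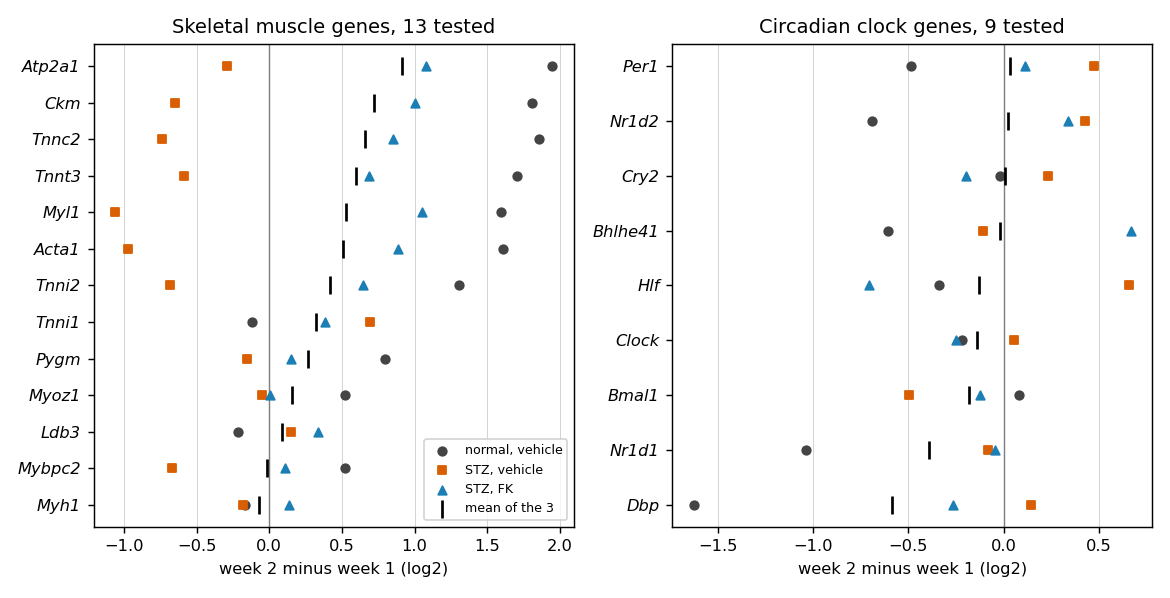
Week 2 minus week 1 difference (log2) of 13 skeletal muscle genes (left) and 9 circadian clock genes (right), with 1 symbol per treatment group and a bar at the mean. For Ckm the normal vehicle and STZ FK symbols lie at 1.81 and 1.01 and the STZ vehicle symbol at -0.65, and for Dbp the normal vehicle symbol lies alone at -1.62.

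Single genes stood at least 2-fold apart in 1 treatment group and under 1.2-fold in both others. In normal vehicle 4 were higher and 1 lower, in STZ vehicle 1 and 1, and in STZ FK 3 and 5. In normal vehicle, Defa5, a defensin, differed by 2.10 and Prpf3, a splicing factor, by 1.22, though dim probe sets for Prpf3 gave 0.41 and -0.49. In STZ vehicle, Strn (striatin) differed by 1.24, though a second probe set gave 0.13, and Fibin by -1.02. In STZ FK, Ndufs4, a subunit of respiratory complex I, went from 6.55 to 8.56, while the other 5 pools lay between 8.33 and 8.59, so it was the week 1 pool that stood apart. Ndrg3 and Naxd differed there by 1.26 and 1.02, though a dim second probe set for Naxd gave 0.08. Icam1, an adhesion molecule for leukocytes, went from 7.86 to 6.61 in STZ FK, Pi16, a gene of adventitial fibroblasts, from 8.61 to 7.36, and Fggy from 8.08 to 6.86. At least 1.5-fold differences numbered 110 higher and 158 lower in normal vehicle, 60 and 63 in STZ vehicle, and 105 and 101 in STZ FK. With 1 array per group and week, these differences between treatment groups have no replicate check and were not tested.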

How the data were processed

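Each array was a rat Affymetrix array of pooled total RNA from 5 rats. The authors deposited linear-scale intensities, 1 for each probe set. MAS5 produced them, per the submitters' processing notes, and its version is not named there. Arrays were not on one level. Of 15923 probe sets, 57 were controls. The platform annotation gave 12783 of the remaining 15866 a single gene symbol, and 312 with several and 2771 with none were left out. Symbols were matched through Entrez identifiers to the GRCr8 gene table (12754 found, 0 changed).

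The 10th percentile of the values, 18.7 units, served as offset before log2 was taken, and all arrays were quantile-normalized. For each of 10412 genes the brightest probe set was used, and 6990 genes whose mean reached the 40th percentile (7.36) were tested. Limma 3.58.1 in R 4.3.3 fitted week and treatment group over all 9 arrays (4 residual degrees of freedom, trended prior), and the contrast was week 2 minus week 1, two-sided. A gene passed at a Benjamini-Hochberg adjusted p under 0.05. An exact sign-flip test of 3 pairs cannot go below 0.25 and was not used. The number of arrays limits the precision. The procedure was tested on simulated data. These had the same week 2 change in every treatment group and independent noise. The simulation thus could not test how the fit behaves when week steps differ between groups.

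The comparison, its 39 gene lists and its tests were chosen with earlier results of these data known. Named genes were those that passed, then those that differed 1.5-fold or more the same way in each treatment group, the 6 list members with the largest moderated t, and up to 3 per direction at least 2-fold apart in 1 treatment group and under 1.2-fold in both others. Other genes in the text were named after their values were seen. After week means were removed, the arrays of weeks 1 and 2 of 1 treatment group correlated across genes at 0.01, 0.09 and -0.04. Alternatives covered the normalization, the offset, the filter, the probe sets, the arrays and block in the fit, the prior, and leaving out each array or treatment group.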

Additional observations from a re-analysis of the deposited data

Results flagged for a closer look

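For 4 gene lists, the median week 2 minus week 1 difference (log2) had 1 treatment group on one side of 0 and both others on the opposite side, each by at least 0.1. That minimum was chosen after the values were seen. Each treatment group had 1 pool per week, so these differences were not tested. For skeletal muscle genes the medians were 1.3 in normal vehicle, -0.587 in STZ vehicle and 0.644 in STZ FK. Medians of the circadian clock list were -0.485, 0.142 and -0.123 in the same order. Satellite glia genes, the markers of the cells that wrap sensory neurons, had medians of 0.125, -0.165 and -0.116. The neutrophil and mast cell list had medians of 0.4, 0.19 and -0.121, with 6 of its 20 genes tested.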

How the results depend on the processing

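With 1 pool per group and week, the count of genes passing was small and unstable. In limma it was 1 with cyclic loess, either other offset, the stricter filter and the robust prior, and the gene was Col3a1. It was 168, all lower, on the values as deposited, which keep the drop in signal. It was 0 with arrays scaled to one median, with no filter, with every probe set on its own (Col3a1 adjusted p 0.0503), with the treatment group left out of the fit as a block and with a prior without a trend. It was 2 on the 6 arrays of weeks 1 and 2. Leaving out each array gave 0 to 4. Leaving out normal vehicle or STZ FK gave 0, and leaving out STZ vehicle gave 4.

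The count of matrix genes lower at an unadjusted p under 0.05, added after the values were seen, was 15 of 34. It was 26 of 34 on the values as deposited, which keep the drop in signal. There, 2224 of all 6991 genes had an unadjusted limma p under 0.05 in either direction, against 405 of 6990 as reported. It was 10 to 16 under the other alternatives that kept all treatment groups and arrays, and 11 to 15 with an array or a treatment group left out. Over 87 genes and 21 alternatives, 1727 gene values kept their direction and side of the threshold, 42 newly passed, 14 no longer passed and 16 changed sign. The 14 were all values of Col3a1, the single gene that could stop passing, which kept its call in 7 of 21 alternatives. Apart from those 7, the 1727 were values that passed in neither fit, so they do not show that a call was stable. Of the 42, 33 were on the values as deposited. On the values as deposited, Cox6c, Gfra2, Plcb3, Psmb5 and Tac1 were at -0.00648, -0.0236, -0.015, -0.0124 and -0.0737. Some genes that stood apart in 1 treatment group changed sign without that group. Mrps11 was at -0.0973 without normal vehicle and Fibin at 0.0343 without STZ vehicle. Fggy, Ndufs4 and Pi16 were at 0.102, -0.0435 and 0.0357 without STZ FK. Others, namely Defa5, Prpf3, Nr1d1, Strn, Naxd and Icam1, kept their sign in every alternative. Small values there follow from the rule, which took genes under 1.2-fold apart in both other groups. With 1 array left out, values ran from -1.24 to 0.145 for Dbp, -0.594 to 0.118 for Fggy, -0.572 to 0.000832 for Fibin, -0.143 to 0.609 for Mrps11, -0.0107 to 0.649 for Ndrg3 and -0.0318 to 1.03 for Ndufs4.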

Other observations

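Several gene groups not described above had members with 1 sign in all 3 treatment groups, given as log2 week 2 minus week 1 values. None passed in limma. Of 36 proteasome genes tested, 15 were higher in all 3 groups and 4 lower in all 3, and the median was 0.03. The shares over all genes were 14.4% and 12.2%, so the count of lower members is near the background. Psmd10 and Psmb5, an assembly chaperone and a catalytic subunit, were at 0.24 and 0.16. Of 21 macrophage genes, Lyz2 (lysozyme) and Aif1 (the microglia and macrophage marker IBA1) were at 0.23 and 0.33, higher in each group, though a dim second probe set for Aif1 gave -0.19, while the list's median was 0.03. S100a9, a calcium-binding protein of neutrophils, was at 0.58, with 0.45, 0.75 and 0.55 in normal vehicle, STZ vehicle and STZ FK, but its partner S100a8 was at 0.12.

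Genes of the insulin-like growth factor family went both ways. Igf1 and Igf2 were at -0.20 and -0.27 and lower in each group, but a second Igf1 probe set gave 0.45, -0.66 and -0.43 in normal vehicle, STZ vehicle and STZ FK, and dim Igf2 probe sets gave 0.01, 0.25 and 0.01. Igfbp5, which binds these factors, was at -0.31, and other probe sets for it gave -0.21 and -1.05, the last one below the brightness filter. Igfbp6 was at 0.23 and higher in each group. The median of the 17 genes of that list was -0.04. Among 10 cell division genes tested, Plk1 and Rrm1 were at -0.57 and -0.49, with -1.23 for Plk1 in STZ FK and 0.08 for Rrm1 in STZ FK.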
